A study of Mus musculus with 6 samples.

Results

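The genes described here are the MHC class I antigen presentation genes of differentiated MC3T3-E1 osteoblasts. They were chosen by symbol, from the Ensembl identifiers of the deposited table, and all 10 of them were among its 24016 genes. They are the heavy chain genes *H2-K1* and *H2-D1*, the light chain gene *B2m*, the peptide transporter genes *Tap1* and *Tap2*, the loading gene *Tapbp*, the immunoproteasome genes *Psmb8*, *Psmb9* and *Psmb10*, and the regulator *Nlrc5*. MC3T3-E1 subclone 4 is a single clonal preosteoblast line from mouse calvaria, labelled wild type. Cells of all groups were differentiated for 6 days with β-glycerophosphate (10 mM) and ascorbic acid (50 μg/ml). One group received vehicle (n = 3 cultures) and the other corticosterone at 100 nM for 24 h (n = 3 cultures), which is the chief glucocorticoid hormone in rodents. The treatment protocol lists 10 nM calcitriol, the active form of vitamin D, without setting any group apart, and the labels and the methods state the range of passages differently.

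MHC class I molecules show peptides from inside a cell to cytotoxic T cells at the cell surface. Proteasomes cut cytosolic proteins into peptides, the TAP transporter carries the peptides into the endoplasmic reticulum, and tapasin holds empty class I molecules at the transporter until a peptide is loaded. Interferons raise the transcription of most of these genes, through IRF factors and the coactivator NLRC5, and glucocorticoids are known to dampen many inflammatory genes.

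Upstream sequences were available in RefSeq (GRCm38.p6) for 8 of the 10 genes, and not for *Tap2* and *Nlrc5*. The stretches below end at the base before the annotated transcription start. They are shown because *H2-K1* and *H2-D1* share a long identical run, and *B2m* carries a match to the letters searched for the interferon element. *Tap1* and *Psmb9* are transcribed in opposite directions from 1 short stretch. Capitals mark matches to the motifs searched. Positions are counted back from the transcription start. In order, the stretches are chr17:34000348-34000547 on the minus strand, chr17:35262894-35263093 on the plus strand, chr2:122147537-122147686 on the plus strand, and chr17:34187331-34187555 on the plus strand, which lies between the starts of *Psmb9* and *Tap1*.
H2-K1: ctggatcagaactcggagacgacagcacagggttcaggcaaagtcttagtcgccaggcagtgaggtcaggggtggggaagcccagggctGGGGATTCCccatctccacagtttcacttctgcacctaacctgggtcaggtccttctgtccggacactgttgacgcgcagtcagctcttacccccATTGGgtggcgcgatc
H2-D1: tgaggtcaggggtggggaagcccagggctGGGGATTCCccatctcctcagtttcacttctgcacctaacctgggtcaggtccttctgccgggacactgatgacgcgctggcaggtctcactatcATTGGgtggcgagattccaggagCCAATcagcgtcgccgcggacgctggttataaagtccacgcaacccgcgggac
B2m: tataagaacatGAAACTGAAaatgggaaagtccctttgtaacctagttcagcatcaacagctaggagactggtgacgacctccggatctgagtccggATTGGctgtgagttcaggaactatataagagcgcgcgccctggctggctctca
Psmb9 to Tap1: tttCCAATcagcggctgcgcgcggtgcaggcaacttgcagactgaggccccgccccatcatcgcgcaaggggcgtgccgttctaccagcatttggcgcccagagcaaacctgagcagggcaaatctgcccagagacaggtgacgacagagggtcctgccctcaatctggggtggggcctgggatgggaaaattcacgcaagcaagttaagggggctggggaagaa

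Windows of 300 bases, with 250 before and 50 after a start, were searched on both strands. The letters were GAAANNGAA for the core of the interferon-stimulated response element (ISRE), TTCNNNGAA for the gamma-activated site (GAS), GGGNNTTCC for kappa B, ACANNNTGT for the core of the glucocorticoid response element (GRE), and CCAAT for the CCAAT box. Of 32851 windows of the annotation, 8.56% held the ISRE core, 8.30% GAS, 5.82% kappa B, 6.85% the GRE core and 37.4% CCAAT. Both heavy chain genes held the kappa B match GGGGATTCC, which began at position -111 of *H2-K1* (-125 from its other annotated start) and -171 of *H2-D1*. It lies within a run of 47 bases that is identical in both windows. *B2m* held the ISRE match GAAACTGAA at -139, and *Psmb8* the GAS match TTCCCAGAA at -97. The CCAAT match at -222 of *Tap1* is the same site as that at -8 of *Psmb9*. *Psmb10* held none of these motifs, and no window of these genes held the GRE core. A match is a run of letters in the window, and binding was not measured. Forms of these elements that depart from the letters were not searched, so a window without a match may still hold one.

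Between 16020401 and 25638645 reads were counted per library, and the 3 corticosterone libraries were all shallower than the 3 vehicle libraries. The part of depth in the results was not tested. Values are given as normalized counts, which are reads divided by 1 size factor per library, so that 3 reads correspond to 2.32 to 3.84. Of 5 glucocorticoid-induced genes (*Tsc22d3*, *Fkbp5*, *Per1*, *Sgk1* and *Klf9*), all 5 were higher with corticosterone. Of 12 osteoblast markers, all were in the table, and 9 were lower and 1 higher with corticosterone. These lists were chosen with earlier results of the same data known, so they are no independent check. Of 14 immune cell markers, 8 were in the table, and the defining leukocyte gene *Ptprc* and the macrophage gene *Adgre1* were not. The summed immune markers ranged from 342 to 397 with vehicle and from 301 to 353 with corticosterone, and 1 of them, *Lyz2*, was lower. Their part in the results below was not tested. Of 6 endothelial markers, 4 were in the table without *Cdh5* and *Kdr*, with sums of 22.8 to 47.8 and 39.8 to 53.7. Of 6 adipocyte markers, 1 was in the table, with sums of 0 with vehicle and up to 2.56 with corticosterone. One library stood apart. In vehicle replicate 2, 27 interferon-stimulated genes from outside the class I pathway had a median ratio of 1.42 to the other vehicle libraries, against 0.997 over all genes.

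With corticosterone, 5 of the 10 class I genes were lower and 0 were higher in limma, the test fitted over all 24016 genes (adjusted p under 0.05). The 5 were *Psmb10*, *Psmb8*, *Tap1*, *Tapbp* and *Tap2*, with decreases of 10.7% to 25.7%. Leaving out any 1 library took the count in limma from 5 to between 0 and 2, and fitting without a variance trend took it to 0. At an unadjusted p under 0.05 in limma, 1 was higher, *H2-D1*, while edgeR and DESeq2 on the recovered reads called 0 higher (adjusted p under 0.05). The background share of lower genes was 8.2% of all genes, and 15.5% of the genes with a mean of at least 100 normalized counts. The share of higher genes was 8.49% of all genes, and 1801 of the 10558 genes with a mean of at least 100 were higher. None of the 10 passed the study's own threshold, which also asks for a log2 fold change beyond 1 and which 2.78% of all genes passed. All 3 corticosterone values lay below all 3 vehicle values in 5 of the 10 genes, against 14.9% of all genes, and above them in 1, *H2-D1*, against 14.7%. Of the 10558 genes with a mean of at least 100, groups lay apart more often, with 2573 below and 2597 above. The median log2 fold change of the 10 genes was -0.18, and that of all genes -0.01. Since RNA of whole cultures was measured, fewer cells of a type and less RNA per cell cannot be told apart.

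Per length of exon, the levels spanned a wide range. In vehicle libraries, the level as RPKM, which scales the recovered reads by exon length and library depth (mean ± SD, n = 3), was 315 ± 18.2 for *B2m*, 109 ± 5.92 for *H2-D1*, 101 ± 2.52 for *Tapbp* and 59.9 ± 2.53 for *H2-K1*. *Psmb10* followed at 16.8 ± 1.35, *Tap2* at 16.6 ± 0.218 and *Tap1* at 14.9 ± 2.14. *Psmb8* was at 6.49 ± 0.699, *Psmb9* at 4.14 ± 0.305 and *Nlrc5* at 0.303 ± 0.0391. The heavy chains, the light chain and tapasin stood above the transporter and the immunoproteasome genes. The ranges of mean ± SD overlapped for *H2-D1* and *Tapbp*, and for *Psmb10*, *Tap2* and *Tap1*. With corticosterone, the levels of *B2m*, *H2-D1*, *Tapbp* and *H2-K1* were 295 ± 3.26, 115 ± 6.01, 85.9 ± 3.78 and 59.5 ± 3.21 RPKM, in the same order.

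**Figure D1:**
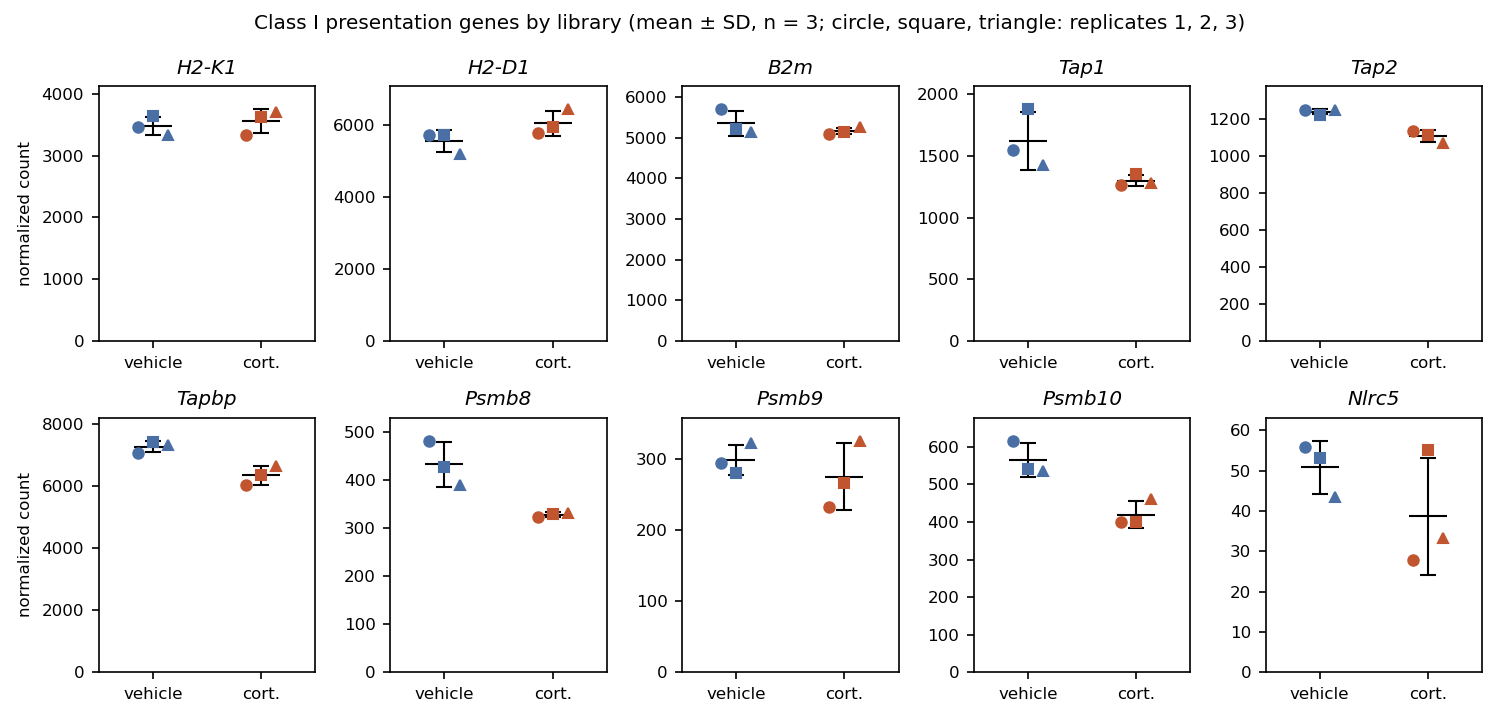
Normalized counts (vertical axes, from 0) of the 10 class I genes in the 3 vehicle (blue) and 3 corticosterone (orange) libraries, with mean and SD; circles, squares and triangles are replicates 1, 2 and 3. The groups do not overlap for *Tap1*, *Tap2*, *Tapbp*, *Psmb8* and *Psmb10*, which are lower with corticosterone, and for *H2-D1*, which lies above.

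In the limma fit, neither of the heavy chains, which bind the peptide, was called in either direction. *H2-K1* (ENSMUSG00000061232, chromosome 17, 33996017 to 34000347 of GRCm38, minus strand) had normalized counts of 3468, 3634 and 3331 with vehicle and of 3334, 3629 and 3702 with corticosterone. Its groups overlapped, with a log2 fold change of 0.03 ± 0.05 (SE; limma, adjusted p = 0.75). *H2-D1* (ENSMUSG00000073411, chromosome 17, 35262730 to 35267499, plus strand) had 5709, 5728 and 5188 with vehicle and 5763, 5944 and 6437 with corticosterone. All 3 corticosterone values lay above the vehicle values, yet the nearest values, 5728 and 5763, were close. The log2 fold change of *H2-D1* was 0.13 (95% interval 0.02 to 0.23; limma, adjusted p = 0.11). *H2-D1* was called higher with a robust prior variance (limma, adjusted p = 0.014), in edgeR with the replicate block (adjusted p = 0.047) and in edgeR without vehicle replicate 2 (adjusted p = 0.026), while the adjusted p reached 0.75 in other alternatives. Its log2 fold change was 0.08 without vehicle replicate 3, and the same without corticosterone replicate 3.

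The 2 genes resemble each other, and reads may be split between them by the counting. Of the 31-base words of the *H2-K1* transcripts, 22.8% also occur in other genes, and of those of *H2-D1* 26.9%, with the partner gene as the main source (11.1% and 13.8%). A sum over all 16 heavy chain genes and pseudogenes in the table (H2-K, H2-D, H2-Q, H2-T and H2-M) does not depend on how reads are split among them. Shared reads that the counting dropped or gave to genes outside the 16 would not enter the sum. The sum was 11641, 12084 and 11107 with vehicle and 11653, 12105 and 12664 with corticosterone. The groups overlapped and differed by 0.06 on the log2 scale (two-sided exact permutation test, p = 0.2, where 0.1 is the smallest possible). *H2-K1* and *H2-D1* made up 78.4% of the sum, and alone they differed by 0.09 (exact permutation p = 0.3). The ratio of *H2-K1* to *H2-D1* was 0.607, 0.635 and 0.642 with vehicle and 0.579, 0.611 and 0.575 with corticosterone. These ratios overlapped, too (exact permutation p = 0.2, adjusted over 5 ratios 0.33).

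Of 16 other heavy chain genes listed, 10 were in the table, and 0 were higher or lower in limma at an adjusted p under 0.05, with 1 higher and 2 lower at an unadjusted p under 0.05. Of the 5 that edgeR and DESeq2 tested, they also called 0. The heavy chains named next were chosen after their values were seen. *H2-T22*, the most abundant, had 1619.6 ± 68.3 with vehicle and 1589.7 ± 14.6 with corticosterone (mean ± SD, n = 3 each), and 67.4% of its words are shared with other genes. *H2-T23*, which encodes the Qa-1 molecule read by natural killer receptors, had 260.03 ± 30.9 and 305 ± 24.3 (limma, adjusted p = 0.13). *H2-T24* had 138 ± 8.55 and 109.9 ± 15.1 (limma, adjusted p = 0.11). Of 6 class I-like molecules, 5 were in the table and 2 were higher. *Mr1*, which presents vitamin B metabolites to MAIT cells, rose from 825 ± 49.0 to 1084 ± 57.6 (log2 fold change 0.39; limma, adjusted p = 0.00019). *Procr*, the endothelial protein C receptor, rose from 109 ± 9.69 to 152 ± 18.4 (log2 fold change 0.48; limma, adjusted p = 0.018).

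*B2m* encodes β2-microglobulin, the light chain that all classical class I molecules need to reach the surface. The gene (ENSMUSG00000060802) lies on chromosome 2, 122147686 to 122153083, outside the MHC. It had normalized counts of 5703, 5214 and 5139 with vehicle and of 5103, 5131 and 5257 with corticosterone. Vehicle replicate 1 was the highest, and the groups overlapped. The log2 fold change was -0.05 with a 95% interval of -0.15 to 0.04 (limma, adjusted p = 0.56), and without vehicle replicate 1 it was -0.004.

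The transporter and its partner were lower. *Tap1* and *Tap2* encode the subunits of the TAP peptide pump, and *Tapbp* encodes tapasin. *Tap1* (ENSMUSG00000037321, chromosome 17, 34187553 to 34197225, plus strand) had normalized counts of 1550.4, 1878 and 1423 with vehicle and of 1267, 1349.7 and 1279 with corticosterone. The groups did not overlap, and vehicle replicate 2 was the highest value. *Tap1* fell by 19.2% (log2 fold change -0.31 ± 0.08, SE; limma, adjusted p = 0.010). Without vehicle replicate 2, the log2 fold change of *Tap1* was -0.19 (limma, adjusted p = 0.10, with 0.064 to 0.26 over all limma fits that leave out 1 library; edgeR on the reads, adjusted p = 0.0083).

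*Tap2* (ENSMUSG00000024339, chromosome 17, 34203527 to 34216321, plus strand) had normalized counts of 1249, 1223 and 1247 with vehicle and of 1135, 1117 and 1071 with corticosterone. The replicates lay close together and the groups apart. *Tap2* fell by 10.7% (log2 fold change -0.16 ± 0.05, SE; limma, adjusted p = 0.036), and DESeq2 gave an adjusted p of 0.057, within a range of 0.0095 to 0.20 over the 13 alternatives that use all libraries. The overlapping transcript *Gm15821* shares 11.3% of its words. The ratio of *Tap1* to *Tap2* was 1.24, 1.53 and 1.14 with vehicle and 1.12, 1.21 and 1.19 with corticosterone, which overlapped (exact permutation p = 0.4, adjusted over 5 ratios 0.5).

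*Tapbp* (ENSMUSG00000024308, chromosome 17, 33915899 to 33929292, plus strand) had normalized counts of 7057, 7419 and 7328 with vehicle and of 6029.9, 6355 and 6627 with corticosterone. The highest corticosterone value stayed below the lowest vehicle value. *Tapbp* fell by 12.9% (log2 fold change -0.20 ± 0.04, SE; limma, adjusted p = 0.0034, and 0.026 to 0.098 with 1 library left out). Of its words, 22.1% are shared with *Gm19412*, and how the counting treated reads from such words is not given in the sources used here.

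Of 12 further genes of peptide trimming and loading, 2 were higher and 2 lower, with a median log2 fold change of 0.03. The cytosolic peptidases *Blmh* and *Npepps* fell by 14.4% and 11.0% (limma, adjusted p = 0.0029 and 0.017). *Thop1*, a cytosolic oligopeptidase, and *Lnpep*, an aminopeptidase of endosomes, rose by log2 fold changes of 0.16 and 0.14 (limma, adjusted p = 0.021 and 0.048). *Erap1*, the trimming enzyme of the endoplasmic reticulum, had 515 ± 25.0 with vehicle and 527 ± 20.3 with corticosterone (mean ± SD, n = 3 each; limma, adjusted p = 0.82). *Tapbpl*, a peptide editor related to tapasin, had 294 ± 16.5 and 247 ± 10.8 without overlap (limma, adjusted p = 0.059).

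**Figure D2:**
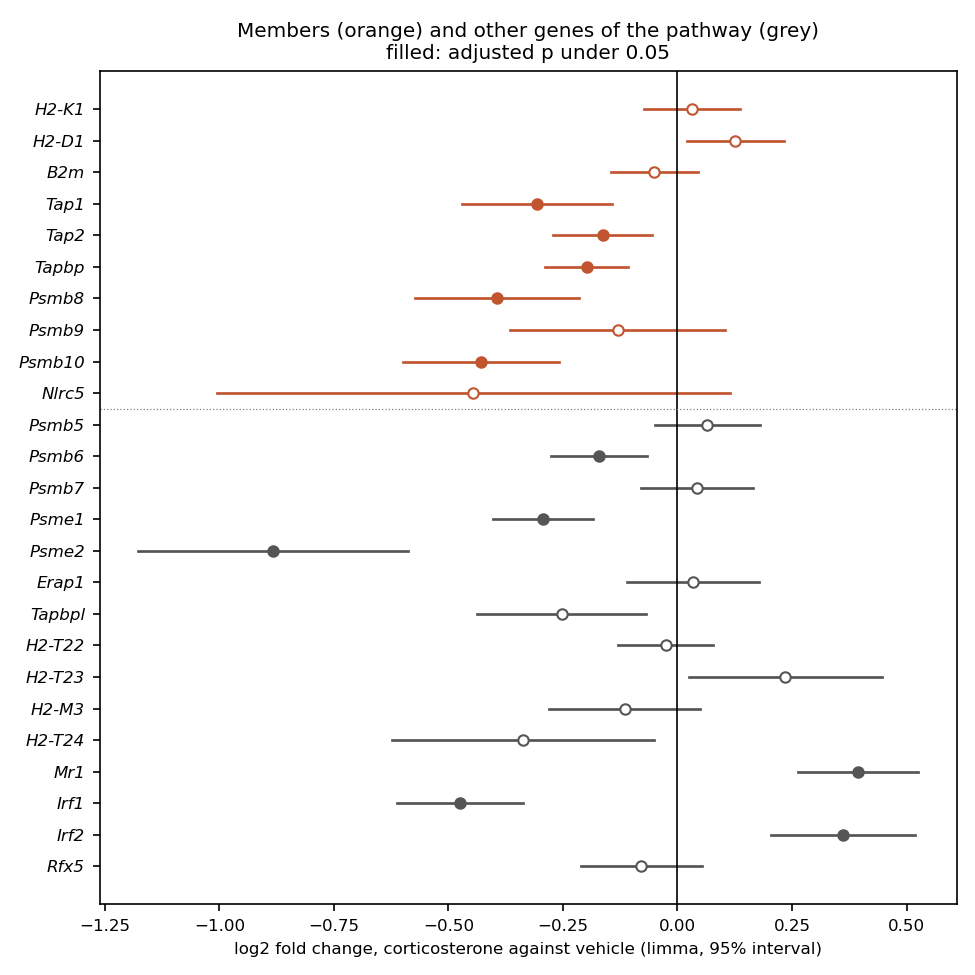
Log2 fold change of corticosterone against vehicle (horizontal axis, points) with its 95% interval (lines, limma, n = 3 per group) for the 10 class I genes (orange) and 15 other genes of the pathway (grey), filled where the adjusted p is under 0.05. The intervals of *Tap1*, *Tap2*, *Tapbp*, *Psmb8* and *Psmb10* lie below 0, and the lowest value, -0.88, is that of *Psme2*.

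Of the 3 immunoproteasome genes, 2 were lower and the third was not called. *Psmb8*, *Psmb9* and *Psmb10* encode the catalytic subunits that replace PSMB5, PSMB6 and PSMB7 in new proteasomes and favour peptides suited to class I molecules. *Psmb8* (ENSMUSG00000024338, chromosome 17, 34197721 to 34201454, plus strand) had normalized counts of 482, 427 and 389.95 with vehicle and of 323, 329 and 333 with corticosterone. The corticosterone values lay within a narrow range below all vehicle values. *Psmb8* fell by 23.9% (log2 fold change -0.39 ± 0.08, SE; limma, adjusted p = 0.0031, and 0.023 to 0.085 with 1 library left out). The transcript *Gm20496* shares 13.0% of its words.

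*Psmb10* (ENSMUSG00000031897) lies on chromosome 8, 105935735 to 105938444, minus strand, outside the MHC, and shares no words with another gene. It had normalized counts of 616, 540.3 and 537 with vehicle and of 399, 398.7 and 461 with corticosterone. Every corticosterone library was lower than every vehicle library. *Psmb10* fell by 25.7% (log2 fold change -0.43 ± 0.08, SE; limma, adjusted p = 0.0010, and 0.019 to 0.076 with 1 library left out). The log2 fold changes of *Psmb8* and *Psmb10* lay within 1 standard error of each other.

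*Psmb9* (ENSMUSG00000096727, chromosome 17, 34181987 to 34187764, minus strand) had normalized counts of 294, 280.2 and 323 with vehicle and of 233, 266 and 326 with corticosterone. Its groups overlapped, and corticosterone replicate 3 held the highest value of all 6 libraries. The log2 fold change was -0.13 with a 95% interval of -0.37 to 0.10 (limma, adjusted p = 0.53), so a decrease as large as that of *Tap1* lies within it. The value of *Psmb9* was -0.02 without corticosterone replicate 1, -0.07 without vehicle replicate 3 and -0.26 without corticosterone replicate 3 (limma, adjusted p = 0.94, 0.83 and 0.18). The RefSeq starts of *Tap1* and *Psmb9* lie 225 bases apart, and the ratio of these genes was 5.27, 6.70 and 4.41 with vehicle and 5.42, 5.07 and 3.92 with corticosterone (exact permutation p = 0.5). This ratio was chosen after the values were seen. In the GENCODE coordinates given above, the 5′ parts of the 2 genes overlap on opposite strands, and whether the counting used the strand is not given in the sources used here.

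Each immunosubunit was then set against the constitutive subunit whose place it takes, within each library. The ratio of *Psmb8* to *Psmb5* was 0.274, 0.240 and 0.235 with vehicle and 0.173, 0.175 and 0.197 with corticosterone. The ratio of *Psmb10* to *Psmb7* was 0.517, 0.448 and 0.409 with vehicle and 0.297, 0.331 and 0.363 with corticosterone. Both ratios were lower in every corticosterone library than in any vehicle library, by -0.46 and -0.47 on the log2 scale. The exact permutation p was 0.1 for each, the smallest that 3 against 3 allows, and 0.25 adjusted over 5 ratios. For *Psmb9* to *Psmb6*, the ratios of 0.104, 0.109 and 0.117 with vehicle and of 0.101, 0.110 and 0.130 with corticosterone overlapped (exact permutation p = 0.8, adjusted 0.8). Of the words of *Psmb5*, 71.7% are shared with other genes, mainly *Gm3375*.

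**Figure D3:**
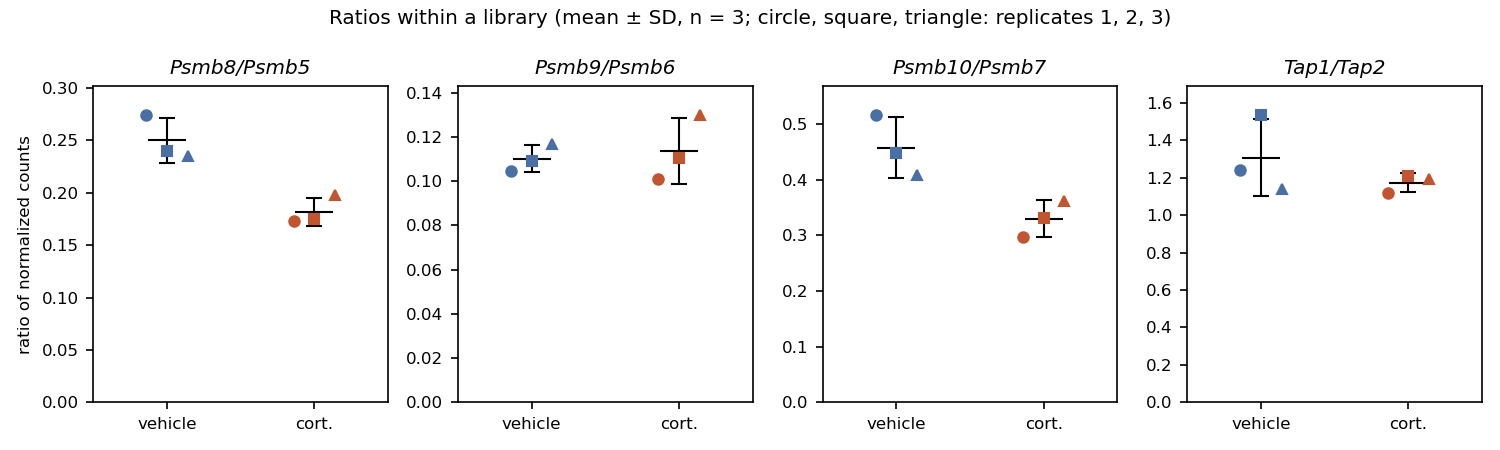
Ratios of normalized counts within each library (vertical axes, from 0) with mean and SD, for vehicle (blue) and corticosterone (orange), n = 3 each; circles, squares and triangles are replicates 1, 2 and 3. *Psmb8/Psmb5* and *Psmb10/Psmb7* do not overlap between groups, while *Psmb9/Psmb6* and *Tap1/Tap2* do.

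Of the 3 constitutive catalytic subunits, 1 was lower. *Psmb6* fell from 2718 ± 134 to 2412 ± 98.2 (log2 fold change -0.17; limma, adjusted p = 0.023). *Psmb5* had 1733 ± 64.4 and 1814 ± 111, and *Psmb7* 1238 ± 66.2 and 1274 ± 70.5 (limma, adjusted p = 0.52 and 0.70). Of the 11 other subunits of the proteasome core, 0 were called by limma at an adjusted p under 0.05, with 1 higher and 1 lower at an unadjusted p under 0.05. For these, edgeR called 1 higher and DESeq2 0, and their median log2 fold change was -0.002. Among 9 activator and assembly genes, 2 were lower, and these were the 2 subunits of PA28, the interferon-inducible cap that opens the proteasome. *Psme1* had normalized counts of 1289, 1239.5 and 1249.5 with vehicle and of 1055, 995 and 1031 with corticosterone (log2 fold change -0.29; limma, adjusted p = 0.00056). *Psme2* had 761, 969 and 946 with vehicle and 578, 543 and 354 with corticosterone (log2 fold change -0.88; limma, adjusted p = 0.00019). Both were lower in all 3 corticosterone libraries than in any vehicle library. The call of *Psme2* was lost with a robust prior variance and without a variance trend (limma, adjusted p = 0.090 and 0.12) and in 5 of 6 limma fits that left out 1 library, where the adjusted p ranged from 0.028 to 0.14. In edgeR and DESeq2 its adjusted p was 0.00013 and 0.0021. Of the words of *Psme2*, 33.5% are shared with *Psme2b*.

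*Nlrc5*, the coactivator of class I transcription, was the least abundant of the 10. The gene (ENSMUSG00000074151, chromosome 8, 94434356 to 94527272, plus strand) had normalized counts of 56.0, 53.3 and 43.4 with vehicle and of 27.8, 55.2 and 33.3 with corticosterone, from 26 to 69 reads. Corticosterone replicate 2 lay among the vehicle values and the other two below them. The log2 fold change was -0.45 with a 95% interval of -1.01 to 0.11 (limma, adjusted p = 0.32), so a change as large as the study's threshold lies within it, as does no change. Without corticosterone replicate 1 the log2 fold change of *Nlrc5* was -0.24, and without corticosterone replicate 2 it was -0.73 (limma, adjusted p = 0.67 and 0.091; edgeR, adjusted p = 0.67 and 0.050).

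Of 16 regulators of class I transcription, 3 were higher and 1 lower. *Irf1*, an interferon-induced activator of class I and immunoproteasome genes, had normalized counts of 882, 765 and 823 with vehicle and of 591, 604 and 579.5 with corticosterone. It was lower in every corticosterone library (log2 fold change -0.47; limma, adjusted p = 4.9e-05). *Irf2*, which competes with IRF1 for its sites, rose from 398 ± 21.2 to 511.5 ± 29.9 (log2 fold change 0.36; limma, adjusted p = 0.0021). *Nfkb1*, which encodes an NF-κB subunit, and *Atf1* rose by log2 fold changes of 0.20 and 0.19 (limma, adjusted p = 0.0030 and 0.025). *Rfx5*, a subunit of the factor that docks NLRC5, had 636 ± 12.8 with vehicle and 602 ± 25.0 with corticosterone (limma, adjusted p = 0.48). *Ciita*, the class II counterpart of *Nlrc5*, had only 4.85 ± 2.27 and 10.9 ± 3.35 (limma, adjusted p = 0.23).

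Of 12 interferon ligands, receptors and kinases, 10 were in the table, where *Ifnb1* and *Ifng* were not listed, and 1 was higher and 3 lower. The feedback inhibitors *Socs1* and *Socs3* and the receptor kinase *Jak1* had log2 fold changes of -0.42, -0.35 and -0.18, and the kinase *Jak2* of 0.22 (limma, adjusted p = 0.022, 0.012, 0.019 and 0.011). Without vehicle replicate 2, the value of *Socs3* was -0.23 (limma, adjusted p = 0.16, and 0.077 to 0.29 over the fits that left out 1 library). Of 28 interferon-stimulated genes from outside the pathway, 3 were higher and 5 lower, with a median log2 fold change of -0.23. Over all genes, 8.49% were higher and 8.2% lower. Of the 10558 genes with a mean of at least 100, 1801 were higher and 1641 lower. Many of these interferon-stimulated genes stood high in vehicle replicate 2, and their median without that library was not computed. *Isg15*, a ubiquitin-like modifier, and *Xaf1* were lower by log2 fold changes of -0.82 and -0.53, and *Ifi35* and *Oas1a*, a sensor of double-stranded RNA, were higher by 0.73 and 0.75 (limma, adjusted p = 0.038, 0.0073, 1.5e-07 and 0.034). The groups of *Isg15* overlapped, and *Oas1a* shares 68.7% of its words with *Oas1g*. Both *Isg15* and *Xaf1* were highest in vehicle replicate 2, and each lost the call in 6 of 6 limma fits that left out 1 library.

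Vehicle replicate 2 was above both other vehicle libraries in 21 of 27 interferon-stimulated genes with a mean of at least 10, and over 1.5-fold above their mean in 11. Among the class I genes, *Tap1* showed the largest such ratio at 1.26, and the other 9 ranged from 0.908 to 1.07. The values of *Tap1* without this library are given above. When edgeR was fitted to the reads with each library left out in turn, an alternative chosen after seeing the data, *Tap1*, *Tapbp*, *Psmb8* and *Psmb10* were lower in 6 of 6 fits and *Tap2* in 4 of 6. With all 6 libraries, edgeR called the same 5 genes lower, against 15.2% of the genes it tested.

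**Figure D4:**
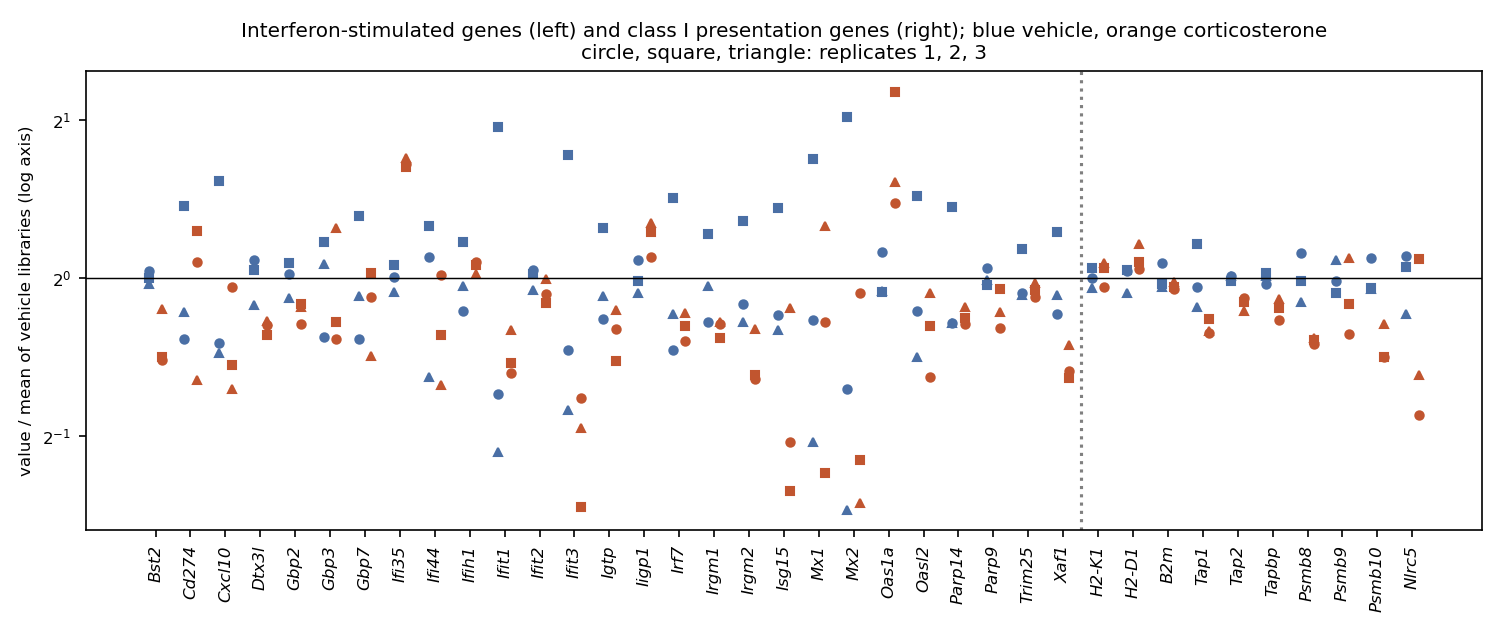
Values of 27 interferon-stimulated genes (left) and the 10 class I genes (right) in each library, divided by the mean of the vehicle libraries (vertical log axis); blue is vehicle, orange corticosterone, and circles, squares and triangles are replicates 1, 2 and 3. The blue squares of vehicle replicate 2 stand above the other vehicle values for many genes on the left. On the right, they do so most for *Tap1*, and by less for *H2-K1*, *H2-D1* and *Tapbp*.

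Of 8 genes of class II presentation, 7 were in the table and 0 were higher or lower in limma at an adjusted p under 0.05, with 1 lower at an unadjusted p under 0.05. Of the 4 that edgeR and DESeq2 tested, they called 0. Of 19 neighbour genes listed from the same region of chromosome 17, 6 were higher and 2 lower, with a median log2 fold change of 0.11. By position, 7 of the 10 class I genes lie on chromosome 17, and 4 of those were lower.

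Across the 6 libraries, the genes outside these lists whose log2 values were most like the mean profile of the 5 lower genes were *Agfg1* (Pearson r = 0.999), *Edil3* (r = 0.999) and *Nes* (r = 0.997), out of 10429 genes compared. Their log2 fold changes were -0.39, -0.39 and -1.22. All these values come from the same 6 libraries, and the highest of so many correlations are a description only.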

How the data were processed

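RNA of 3 vehicle and 3 corticosterone cultures, called biological replicates by the submitters, was sequenced commercially on an Illumina platform from NEB Next Ultra libraries. The authors deposited 1 normalized signal per gene and library, named FPKM. Within each library, 1 step (tolerance 0.01 reads) divided 100% of the values, whatever the gene's length. The deposited signal therefore holds read counts divided by 1 size factor per library, and reads were recovered from it. The submitters' processing notes name mm10, and the aligner, counting program, annotation and strand setting are not given in the sources used here.

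The design assumed FPKM and was kept as written. The test was limma 3.58.1 (R 4.3.3, variance trend, two-sided) on log2 values after adding 0.1. A minimum mean of 0.1 removed no gene, and p-values had Benjamini-Hochberg adjustment over 24016 genes. Fold changes are on this scale. Sums and ratios were compared by exact permutation over libraries. The alternatives were pseudocounts of 1 and 0.01, no filter, a mean of at least 10, the replicate number as a block, no variance trend, quantile normalization, upper-quartile scaling, scaling to the same total, a robust prior variance, edgeR 4.0.16 and DESeq2 1.42.0 on the recovered reads, edgeR with the block, and each library left out. The edgeR fits with 1 library left out and the ratio of *Tap1* to *Psmb9* were added after seeing the data. The fits were also run on simulated counts with the same dispersion set for every gene, unlike real libraries, and no result given here rests on that run.

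The class I genes and the gene lists were chosen with earlier results of these data known. By rule, the genes to name were all 10 genes, the up to 4 genes per list with the largest change among those called at a mean of at least 10, 11 genes fixed by role (1 of which is not reported here), and the 3 genes most correlated with the 5 lower ones at a mean of at least 100. The text names only part of them, and *H2-T22*, *H2-T23*, *H2-T24* and *H2-M3* were added after their values were seen. Symbols, positions, exon lengths and shared 31-base words came from GENCODE M21 (GRCm38), which named 23983 genes. The intervals and SE come from the limma fit and rest on the spread between cultures, with variance information shared across genes. The SD covers the spread of cultures, and the values given for 3 reads concern counting only. The authors' comparison results, the mouse experiments and the human cohorts were not used here.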

Additional observations from a re-analysis of the deposited data

How the results depend on the processing

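The 5 decreases kept their direction in every alternative run, and all 5 were called lower in most of them. Without a variance trend, 0 of the 10 class I genes were called lower, and over all genes 873 were higher and 760 lower. Leaving out 1 library in limma gave 0 to 2 class I genes called lower, with 1304 to 1585 genes higher and 1058 to 1456 lower over all genes. The calls that remained were *Psmb8* without vehicle replicate 1 or 3, *Tap2* without vehicle replicate 2 or corticosterone replicate 1, *Psmb10* and *Tapbp* without corticosterone replicate 3, and none without corticosterone replicate 2, where fewer samples entered each fit. DESeq2 called 4, without *Tap2*. Quantile normalization called 6, with *B2m* added (limma, adjusted p = 0.023, up to 0.73 in the other alternatives with all libraries). *H2-D1* was called higher, as 1 class I gene, with a robust prior variance, in edgeR with the replicate block, and in edgeR without vehicle replicate 2. *Tap2* was not called in edgeR without vehicle replicate 3 or corticosterone replicate 3. *H2-K1* turned to -0.00376 under quantile normalization and to -0.0105 when scaled to the same total, and *Erap1* to -0.00813 under the latter. Scaling to the same total moved the calls over all genes from 2040 higher and 1970 lower to 1703 and 2521. Blocking on the replicate number gave 5 class I genes lower, and 2012 higher and 1893 lower over all genes. The labels do not say that the numbers pair the cultures. Deviations of same-numbered libraries correlated at -0.04, 0.001 and 0.02 over 13880 genes. Those of differently numbered libraries ran from -0.06 to 0.07. So few libraries cannot exclude a pairing with a small effect. For the glucocorticoid-induced genes, calls in the limma fits with 1 library left out were not counted. *Psme1*, *Irf1*, *Irf2*, *Nfkb1*, *Mr1*, *Blmh* and *Ifi35* were called in 6 of 6 such fits. The remaining called genes that the text names from the other lists each lost the call in at least 4. *Nlrc5* rests on 26 to 69 reads in a library.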
